A study of Mus musculus with 4 samples.

Results

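The lung tumor and the normal lung of mice heterozygous for the A159V change of FEN1 were compared through the tandem duplications called in their exomes. The members are all 612 records of the A159V table, out of 1404 records in the 2 tables of the series, and every one of them had at least 1 read with the duplication in the tumor library or in the normal library. Each record was placed in 1 of 3 classes by the deposited read counts: reads with the duplication in the tumor only, in normal lung only, or in both. The design asks how many duplications arise in coding regions when Okazaki fragments are matured by a defective enzyme. Both libraries are genomic DNA from exon capture, 1 library each, from a FEN1 knock-in with 1 mutant and 1 wild-type allele. The labels give no strain, age, sex or tumor origin, and do not say whether tumor and normal lung came from 1 animal. The wild-type tumor and wild-type normal lung were used only for comparison. With 1 library a side, no test between tumor and normal lung was possible, and all intervals are exact 95% intervals for counting error only.

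FEN1, flap endonuclease 1, is a nuclease that cuts the 5' flaps raised when DNA polymerase displaces the start of the preceding Okazaki fragment, so that DNA ligase can seal the lagging strand. Flaps that escape removal can fold back or pair with a nearby direct repeat, and cells that lack the enzyme are known for short duplications that lie between such repeats. In a tandem duplication a segment is followed by a further copy of itself. A split-read caller such as Pindel, named in the file headers, reports the length of the segment and the number of other bases that lie between the copies.

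The alleles below carry the findings. Each line gives the duplicated segment, the bases between the copies and the second copy of the segment, 5' to 3' on the plus strand of GRCm38. Capitals mark the segment and every stretch between the copies that shares 12 or more bases in a row with it. A run of n stands for bases that the call left unread, and the positions are those of the segment. The first set had reads in both libraries:
Rpap3, chr15:97686399-97686431: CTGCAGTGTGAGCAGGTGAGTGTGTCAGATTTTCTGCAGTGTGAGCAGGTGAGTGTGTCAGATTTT
Rpap3, chr15:97686378-97686410: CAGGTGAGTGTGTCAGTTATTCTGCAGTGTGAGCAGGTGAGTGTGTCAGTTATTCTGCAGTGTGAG
Irak4, chr15:94563066-94563088: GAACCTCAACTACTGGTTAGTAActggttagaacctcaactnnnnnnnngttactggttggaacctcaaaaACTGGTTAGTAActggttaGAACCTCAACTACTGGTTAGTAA
Mast4, chr13:102774435-102774480: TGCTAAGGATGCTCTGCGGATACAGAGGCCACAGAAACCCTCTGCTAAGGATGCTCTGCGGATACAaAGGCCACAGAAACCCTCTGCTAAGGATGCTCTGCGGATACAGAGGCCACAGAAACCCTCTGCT
Aox4, chr1:58215561-58215607: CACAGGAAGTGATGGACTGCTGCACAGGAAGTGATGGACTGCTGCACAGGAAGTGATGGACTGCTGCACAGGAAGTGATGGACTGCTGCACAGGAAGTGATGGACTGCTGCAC
Chl1, chr6:103649107-103649152: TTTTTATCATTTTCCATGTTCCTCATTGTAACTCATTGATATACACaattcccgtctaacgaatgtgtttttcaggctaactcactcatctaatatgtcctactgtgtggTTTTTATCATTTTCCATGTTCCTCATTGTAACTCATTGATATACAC
The second set had reads in the tumor only. The first of these lies in a satellite-rich window and the others in protein-coding genes:
Satellite-like, chr2:98666985-98667033: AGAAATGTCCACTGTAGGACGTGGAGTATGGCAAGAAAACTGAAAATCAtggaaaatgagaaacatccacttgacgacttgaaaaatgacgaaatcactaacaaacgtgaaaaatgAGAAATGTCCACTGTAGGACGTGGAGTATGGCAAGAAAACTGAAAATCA
Mcm8, chr2:132832646-132832676: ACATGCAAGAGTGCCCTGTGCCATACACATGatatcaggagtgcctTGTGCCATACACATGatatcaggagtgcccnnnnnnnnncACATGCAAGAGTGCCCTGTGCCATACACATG
Zfp984, chr4:147756200-147756236: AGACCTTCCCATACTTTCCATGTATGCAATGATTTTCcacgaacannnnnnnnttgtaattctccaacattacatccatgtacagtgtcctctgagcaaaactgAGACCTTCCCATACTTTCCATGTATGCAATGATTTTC
Mov10l1, chr15:89011983-89012023: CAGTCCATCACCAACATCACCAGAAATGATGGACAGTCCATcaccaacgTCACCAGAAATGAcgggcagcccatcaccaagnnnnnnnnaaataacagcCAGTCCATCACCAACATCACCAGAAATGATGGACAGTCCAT
The third set had reads in normal lung only:
Cmya5, chr13:93096892-93096937: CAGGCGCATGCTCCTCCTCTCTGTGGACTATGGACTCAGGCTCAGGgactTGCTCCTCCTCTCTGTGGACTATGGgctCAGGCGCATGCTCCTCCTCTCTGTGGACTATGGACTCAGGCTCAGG
C2cd2l, chr9:44317711-44317752: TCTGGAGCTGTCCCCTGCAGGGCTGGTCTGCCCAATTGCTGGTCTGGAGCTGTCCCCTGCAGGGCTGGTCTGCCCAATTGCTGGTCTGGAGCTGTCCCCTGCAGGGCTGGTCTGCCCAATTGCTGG
Myt1l, chr12:29621812-29621843: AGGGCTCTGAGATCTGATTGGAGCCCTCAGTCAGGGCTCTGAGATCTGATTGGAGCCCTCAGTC
Tmem267, chr13:119609646-119609681: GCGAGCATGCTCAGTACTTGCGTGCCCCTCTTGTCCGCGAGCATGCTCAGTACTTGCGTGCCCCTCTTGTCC
The alleles show the forms that recur in all 3 classes: exact copies with nothing between them, arrays in which the gap holds a further copy of the segment, as in C2cd2l, or a further part of it, as in Aox4, and copies set apart by other bases, as in Chl1 and Zfp984.

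Depth at the recorded sites was uneven, and the libraries differed on the sex chromosomes and at satellite. The median number of reads at a site was 2 in the tumor (range 0 to 8640) and 1.5 in normal lung (range 0 to 5704). At the 83 autosomal records outside satellite with at least 20 reads in each library, the tumor to normal ratio of reads had a median of 1.07 (1.00 to 1.14). On chromosome X all 4 records with at least 10 reads in each library had fewer reads in the tumor, with ratios of 0.490, 0.407, 0.693 and 0.646. On chromosome Y the tumor had 34 reads over 8 records and normal lung had 1. Of these, Rbmy, a multicopy Y-linked gene of the male germ line, had 27 tumor reads and 0 normal reads. The same held in the wild type, where all 5 such X records were lower in the tumor and the Y records had 15 tumor reads and 5 normal reads. Whether the tumor and normal libraries came from animals of different sex was not tested, and the class counts are given below with and without these chromosomes.

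At 1 or more duplication reads the tumor and normal lung carried nearly equal numbers of one-sided records. Of the 612 records, 297 had reads in the tumor only (48.5%, 44.5 to 52.6), 278 in normal lung only (45.4%, 41.4 to 49.5) and 37 in both (6.05%, 4.29 to 8.24). The ratio of tumor-only to normal-only records was 1.07 (0.904 to 1.26). When a library counted only with 2 or more duplication reads, it was 1.73 (0.885 to 3.52), from 26 and 15 records. A record so classed as one-sided may hold 1 read in the other library. Strictly one-sided records with 2 or more reads numbered 16 in the tumor and 10 in normal lung. On the autosomes alone there were 281, 265 and 37 records, with a ratio of 1.06 (0.893 to 1.26). In protein-coding gene spans the ratio was 0.922 (0.735 to 1.16), from 153 and 166 records. Support was thin: 549 records (89.7%) rested on 1 duplication read over both libraries, among them 281 of the tumor-only and 268 of the normal-only records. The genotype field called a duplication in 4 records only. These were Irak4 and an Rpap3 record in both libraries, a further Rpap3 record in normal lung alone, and Mib1, a ubiquitin ligase gene of the Notch pathway, in the tumor alone. Fen1 itself (chr19:10199132-10204393) held no record.

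**Figure D1:**
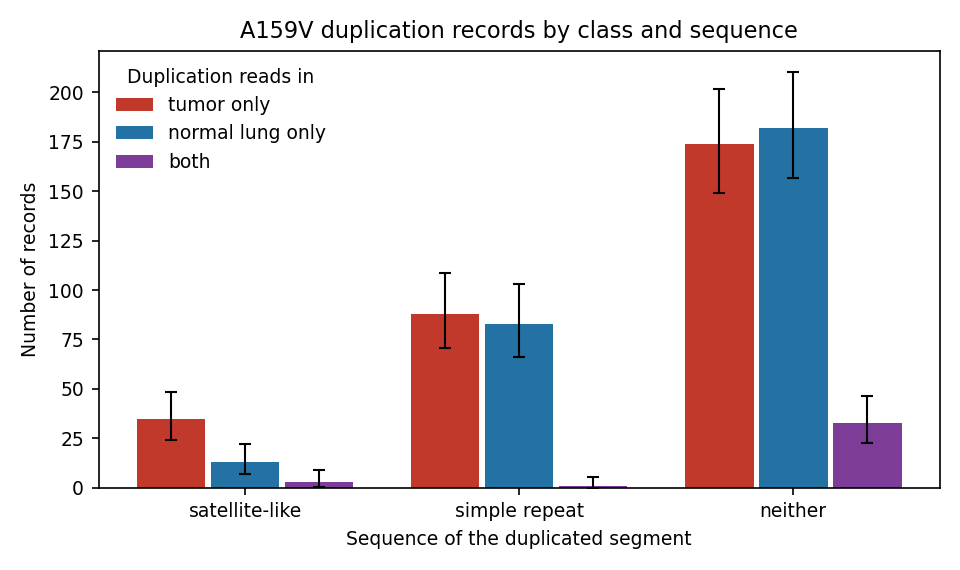
Number of A159V records (y axis) by sequence of the duplicated segment (x axis) and class (color), with exact 95% Poisson intervals. Satellite-like records number 35 in the tumor only and 13 in normal lung only, simple repeats 88 and 83, and the rest 174 and 182.

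The excess of tumor-only records lay in satellite. Mouse major satellite is the tandem array of pericentromeric heterochromatin, and a record was called satellite-like when its segment shared at least 2 12-mers with those common to the record-dense, gene-free windows of chromosomes 2 and 9. Of 51 such records, 35 had reads in the tumor only, 13 in normal lung only and 3 in both, a ratio of 2.69 (1.39 to 5.55). Some of the 51 start within 10 bp of each other and are not independent loci, which this interval does not take into account. Among the other 561 records the counts were 262, 265 and 34, and the ratio was 0.989 (0.830 to 1.18). Within satellite the difference came from the chromosome 2 window, with 22 tumor-only records and 1 normal-only record (2 of the 22 not satellite-like). The chromosome 9 window had 10 and 8. These windows were picked by the number of records in them, and most of the 25 records in the chromosome 2 window were tumor-only. The satellite ratio thus comes from a set defined partly by the records it counts. Outside satellite, at 20 or more reads in each library, 32 records were tumor-only and 45 normal-only, a ratio of 0.711 (0.437 to 1.14). Depth differed in the same direction: at the 37 satellite-like records with at least 20 reads in each library the tumor to normal ratio of reads had a median of 1.78 (1.74 to 1.91) and exceeded 1 at all 37. The part of this depth in the satellite count was not tested.

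**Figure D2:**
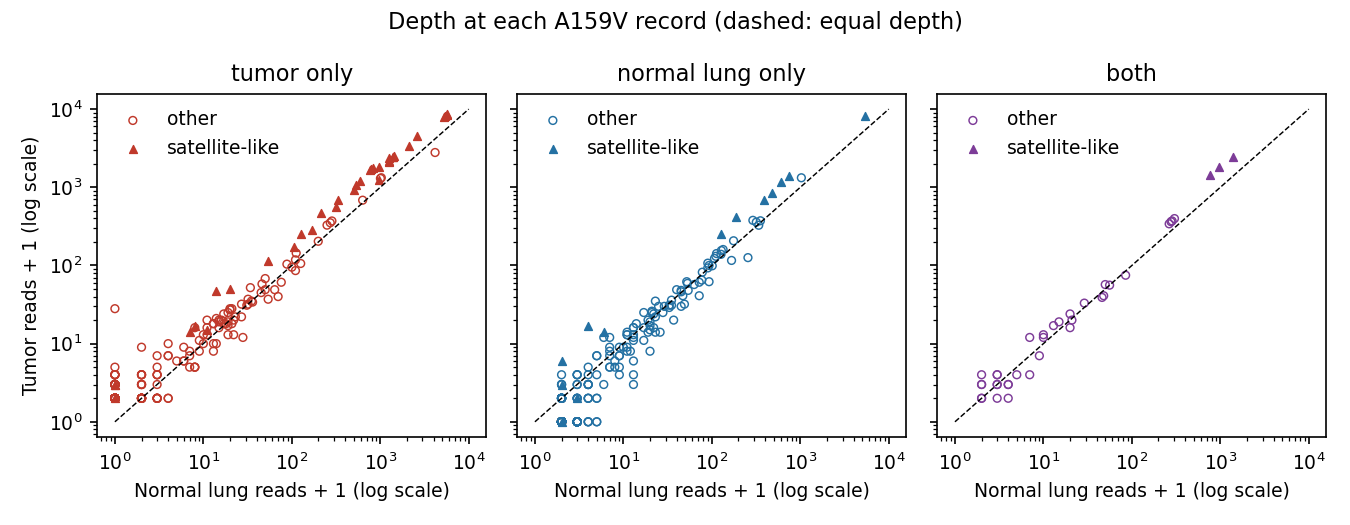
Reads at each record plus 1 in the tumor (y axis) against normal lung (x axis), both on log scales, in 1 panel per class. Triangles are satellite-like records, which lie above the dashed line of equal depth at all 37 sites with at least 20 reads in each library, while the other records scatter about it.

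Duplications seen in both libraries numbered 37 records at 29 loci and held 103 duplication reads in the tumor and 85 in normal lung. The tumor had more duplication reads in 12 records, normal lung in 7, and 18 were equal, 14 of them with 1 read in each. The intervals of the tumor and normal shares overlapped in all 37, which the sorting by reads in both libraries and the low depth make likely, and which does not show that the shares are alike. This class also held 8 of the 10 records with 5 or more duplication reads over both libraries.

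Irak4, a kinase that relays signals of interleukin-1 and Toll-like receptors, had the largest share at 10 or more reads in each library. Its 23 bp segment was duplicated in 8 of 19 tumor reads (42.1%, 20.3 to 66.5) and in 11 of 20 normal reads (55.0%, 31.5 to 76.9). Rpap3 encodes a cochaperone that helps assemble RNA polymerase II, and its exact 33 bp copy from 97686399 had 7 of 23 tumor reads (30.4%, 13.2 to 52.9) and 6 of 19 normal reads (31.6%, 12.6 to 56.6). At both loci the tumor share lay inside the interval of normal lung. Wild-type libraries also had reads with a duplication within 10 bp at both. These were 14 tumor and 4 normal reads at Irak4, and 10 and 4 at this Rpap3 record. The other 3 Rpap3 records seen in both started at 97686378 and had 1 of 12, 1 of 16 and 3 of 18 tumor reads, and 2 of 9, 1 of 12 and 3 of 14 normal reads. The further 3 Rpap3 records had 1 normal read each and none in the tumor, at tumor depths of 13 to 15 reads. All 7 overlap each other and are not independent loci.

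At Chl1, a neural cell adhesion gene, the best supported allele had 28 of 397 tumor reads (7.05%, 4.74 to 10.03) and 19 of 302 normal reads (6.29%, 3.83 to 9.65). It lay among 12 Chl1 records in a 100 kb window, of which the record at 103649228 was satellite-like. At the 11 with at least 20 reads in each library, the tumor to normal ratio of reads had a median of 1.30 (1.29 to 1.31) and exceeded 1 at all 11. Wild-type libraries had 56 tumor and 43 normal reads with a duplication within 10 bp of this allele. The immunoglobulin heavy chain locus Igh, whose many variable segments resemble each other, held 3 records of this class. The best supported, 35 bp at chr12:114804996-114805030, had 3 of 40 tumor reads (7.50%) and 3 of 47 normal reads (6.38%). Single reads in each library supported Prkag1 (1 of 74 and 1 of 84), a regulatory subunit of AMP-activated kinase, Plin4 (1 of 55 and 1 of 55), a lipid droplet coat protein, and Bin2 (1 of 32 and 1 of 28). At these deeper sites the shares of the libraries had overlapping, wide intervals.

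The remaining genes of this class had 11 or fewer reads a library. Mib1 had 5 of 11 tumor reads (45.5%, 16.7 to 76.6) and 1 of 6 normal reads (16.7%, 0.421 to 64.1). Mast4, a microtubule-associated kinase, had 3 of 6 and 1 of 8 reads. Ndufa3, a subunit of respiratory complex I, had 1 of 3 and 3 of 6. Among them, 5 records had no reference read in either library: 1 each in Chsy3, a chondroitin synthase (3 tumor and 4 normal reads), Sucla2, a subunit of succinyl-CoA ligase (2 and 1), and Aox4, an aldehyde oxidase (1 and 1), and 2 in the noncoding gene 4933406C10Rik (3 and 1, 1 and 1). The other records of this class, among them Sema5a, Atf7ip, Atp2c1, Kif5a, Mccc1 and Zfp236, had 3 or fewer reads a library at these genes.

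**Figure D3:**
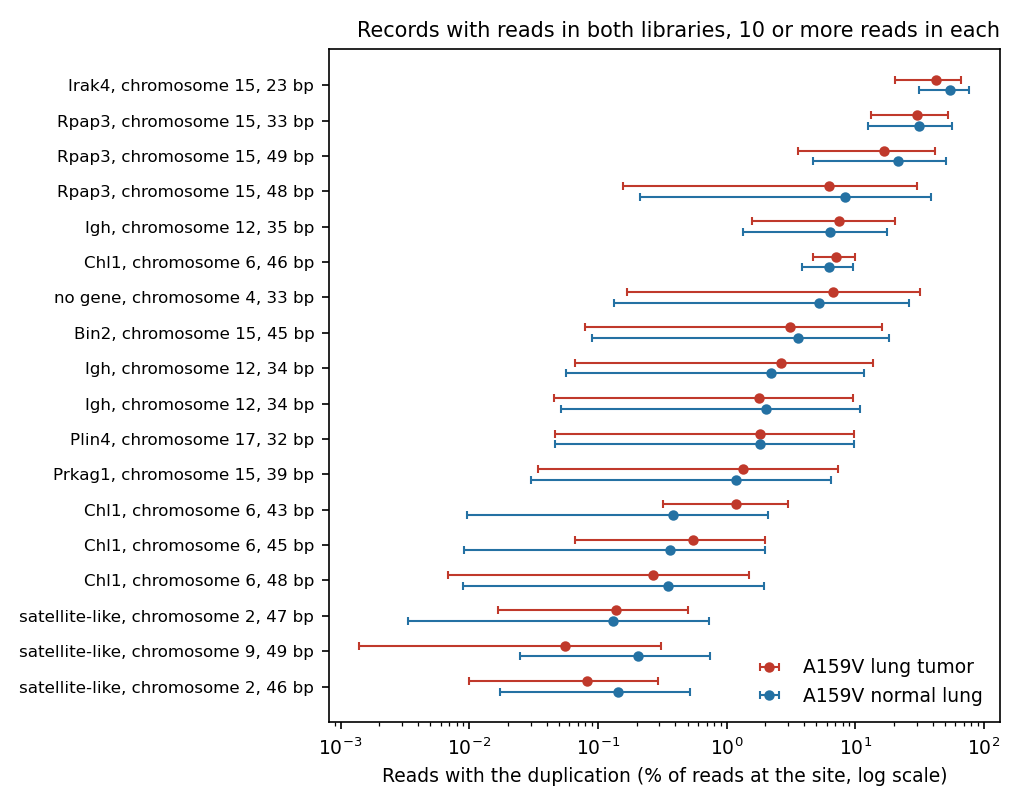
Share of reads with the duplication (x axis, percent, log scale) in the tumor (red) and normal lung (blue) at the 18 records with reads in both libraries and at least 10 reads in each, with exact 95% intervals. In every row the intervals overlap, from Irak4 at 42.1% and 55.0% down to satellite-like records below 0.3%.

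At no tumor-only record could the read counts show that normal lung lacked the duplication. In 151 of the 297 (50.8%, 45 to 56.7) normal lung had no read at all at the site, in 41 it had 1 to 3 reads, and in 105 it had more. A count of 0 allows up to 3 reads of the depth. At 0 of the 297 was this limit below the share seen in the tumor. With 1 duplication read, as in 281 of the 297, that needs a normal depth of more than 3 times the tumor depth. The low duplication read counts thus largely fixed this outcome, also at deep sites. Only 16 of the records had 2 or more tumor reads, 4 of them satellite-like, and 5 of the 16 had a normal depth of 0.

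The most tumor reads lay on chromosome 2 in satellite, where the allele at chr2:98666985-98667033 had 5 of 2150 reads (0.233%, 0.0756 to 0.542) against a normal limit of 0.237% from 1268 reads. In genes, Zfp984 (zinc finger) had 2 of 85 tumor reads (2.35%, 0.286 to 8.24) with a normal limit of 2.75%. Vcpkmt, a lysine methyltransferase, had 2 of 31 (6.45%) with a limit of 9.68%. Mov10l1, an RNA helicase of the piRNA pathway, had 2 of 26 (7.69%) with a limit of 15.8%. Slc11a2, an iron transporter, had 2 of 20 (10%) with a limit of 23.1%. All 4 tumor shares thus lie under what the normal depth could have shown. Mcm8, a helicase of homologous recombination, had 2 of 2 tumor reads, but normal lung had 1 read there. Pglyrp1, a peptidoglycan recognition protein, had 2 of 2 tumor reads at a normal depth of 0. All of these genes except Vcpkmt had a wild-type record within 10 bp.

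The deepest tumor-only records outside satellite and dense windows rested on 1 read each. Among them were Zscan18 (1 of 143 reads, 0.699%, limit 2.70%) and Grpel2, a mitochondrial protein import factor (1 of 117, 0.855%, limit 2.75%). Zscan18 also held normal-only records nearby, at 12774607 (1 of 127 normal reads) and at 12774619 (1 of 133). With 1 read each, such shares could not be shown to be absent from normal lung at these depths.

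Normal-only records were likewise limited by depth and by few duplication reads. In 132 of the 278 (47.5%, 41.5 to 53.5) the tumor had no read at the site, in 48 it had 1 to 3, and in 98 more. The tumor limit lay below the share seen in normal lung at 3 records. One was in Cmya5, which encodes a large muscle protein, where 8 of 92 normal reads (8.70%, 3.83 to 16.4) and 0 of 61 tumor reads carried the allele, a limit of 4.92%. The lower bound for normal lung is under that limit. Whether the libraries differ at this record, picked for its counts, was not tested. Wild-type libraries had 1 tumor read and 2 normal reads with a duplication within 10 bp. The other records were satellite-like sites on chromosomes 9 and 14 with 1 normal read of 1 and of 3, at tumor depths of 5 and 16, and their lower bounds too are under the tumor limits.

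Among the 10 normal-only records with 2 or more reads, tumor depth was 0 in 4: Agmo (3 of 3 normal reads), an enzyme of ether lipid breakdown, Dock2 (2 of 2), a guanine exchange factor of leukocytes, Myt1l (2 of 2), a neuronal zinc finger factor, and Tmem267 (2 of 2). Agmo, Myt1l and Tmem267 were exact copies with no wild-type record within 10 bp. Slc6a13 had 4 of 4 normal reads at a tumor depth of 1. A tumor-only record there started at the same base, with 1 of 2 tumor reads. Wild-type libraries had 15 tumor and 2 normal reads with a duplication within 10 bp. C2cd2l had 3 of 3 normal reads at a tumor depth of 2, and wild-type libraries had 4 tumor reads and 1 normal read so placed. Cd2bp2 (2 of 106 normal reads, 1.89%, limit 2.46%) and the histocompatibility gene H2-Bl (2 of 338, 0.592%, limit 0.920%) were well covered in the tumor, with 122 and 326 reads. Both shares still lie under the tumor limit.

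**Figure D4:**
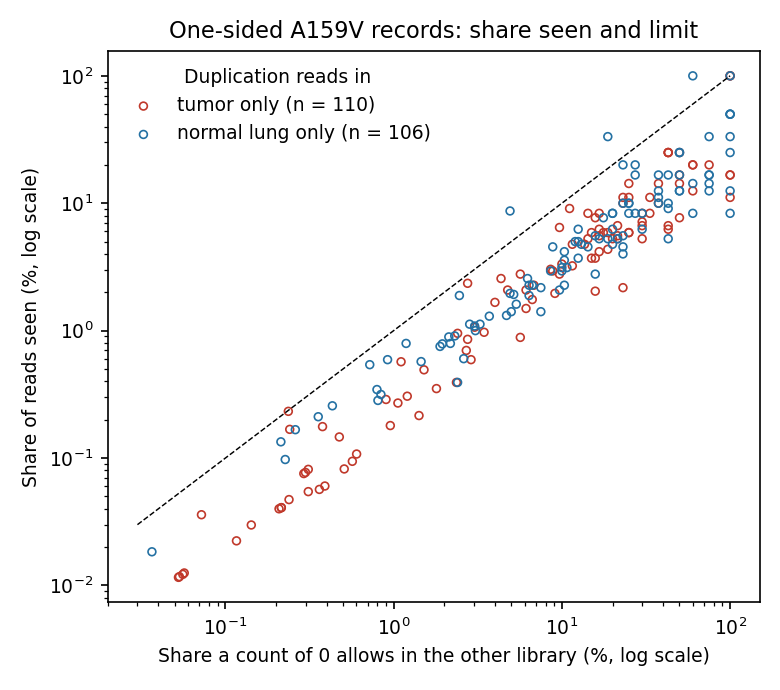
Share of reads with the duplication where it was seen (y axis) against the largest share that a count of 0 allows in the other library (x axis), both in percent on log scales, for 110 tumor-only and 106 normal-only records with 3 or more reads in the other library. Above the dashed line the share seen exceeds that limit: 3 normal-only records lie there, Cmya5 the best supported, and 0 tumor-only records, but the lower bound of each of the 3 shares is under the limit.

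Segments had a slightly higher median in tumor-only records, with intervals that overlap those of the other classes. The median segment was 42 bp (40 to 43) in tumor-only, 40 bp (38 to 41) in normal-only and 40 bp (34 to 45) in shared records. Segments of 30 bp or less made up 12.5% (8.93 to 16.8), 19.8% (15.3 to 24.96) and 16.2% (6.19 to 32.01). Without satellite-like records, whose median was 47 bp, the medians were 40, 39 and 38 bp. Bases between the copies, where present, had medians of 61 bp (59 to 62), 59 bp (57 to 61) and 62.5 bp (52 to 66). Gaps of 65 to 69 bp made up 31.99% (26.7 to 37.6) of tumor-only and 20.5% (15.9 to 25.7) of normal-only records. Outside satellite these shares were 24.05% (19 to 29.7) and 17.4% (13 to 22.5), whose intervals overlap.

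**Figure D5:**
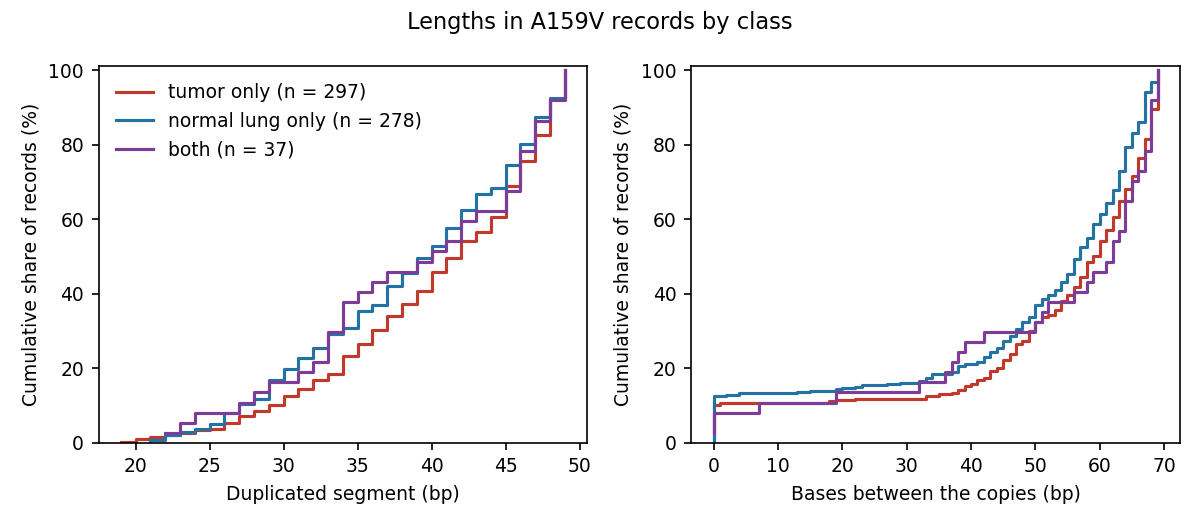
Cumulative share of records (y axis, percent) by length of the duplicated segment (left) and by number of bases between the copies (right), both in bp, for the 3 classes. The tumor-only curve lies to the right for segments, with a median of 42 bp against 40 bp in the other classes, and each curve ends at 49 and 69 bp.

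Exact copies made up 30 tumor-only (10.1%, 6.92 to 14.1), 35 normal-only (12.6%, 8.93 to 17.1) and 3 shared records (8.11%, 1.70 to 21.9), with overlapping intervals. At 10 or more reads in each library the one-sided shares were 1.18% and 6.85%. When a library counted only with 2 or more duplication reads, they were 0% of 26 and 26.7% of 15 records. The exact copies among these 15 include an Rpap3 record that also had 1 tumor read and is otherwise counted as shared. The 3 shared exact copies were a pair in Rpap3 and a 42 bp copy on chromosome 19. Simple repeats, homopolymers and short tandem units, differed between one-sided and shared records. They made up 88 tumor-only (29.6%, 24.5 to 35.2) and 83 normal-only records (29.9%, 24.5 to 35.6), but 1 of 37 shared records (2.70%, 0.0684 to 14.2), in Atp2c1, a Golgi calcium and manganese pump. Of the 172 repeats, 99 had a unit of 1 base, 48 in the tumor only and 51 in normal lung only, and 29 a unit of 2 bases. With at least 10 reads in each library the shares were 4.71% and 6.85%, and 0 of 18 in shared records, so the contrast lay at shallow sites. GC content had medians of 42.2%, 42.9% and 44.1% in the 3 classes, with overlapping intervals.

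Further stretches of the segment in the gap had a higher share in shared records, with intervals that overlap. Gaps of at least 20 bp outside simple repeats were searched for 12-mers of the segment. A further stretch of the segment lay there in 18 of 31 shared records (58.1%, 39.1 to 75.5), in 65 of 197 tumor-only records (32.99%, 26.5 to 40.03) and in 65 of 177 normal-only records (36.7%, 29.6 to 44.3). The segment itself repeated a 12-mer in 16.2% of shared records (6.19 to 32.01), 5.05% of tumor-only (2.85 to 8.19) and 6.12% of normal-only records (3.60 to 9.61). Inserted lengths that were multiples of 3 bp made up 67.6% of shared records (50.2 to 82.0), against 43.1% (37.4 to 48.9) and 42.8% (36.9 to 48.9). With 1 record per locus the shares were 65.5% (45.7 to 82.1), 42.3% (36.4 to 48.2) and 41.4% (35.5 to 47.6), and the interval of shared records overlapped both others. Exons were not resolved, so these lengths do not say that a reading frame was kept.

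In 10 one-sided records, 5 in each class and 0 of 31 shared, the gap held the reverse complement of part of the segment, 12 to 38 bases in a row. In these 2 examples capitals mark the part of the segment that has its reverse complement in the gap, and that reverse complement:
Nbas, chr12:13436526-13436570: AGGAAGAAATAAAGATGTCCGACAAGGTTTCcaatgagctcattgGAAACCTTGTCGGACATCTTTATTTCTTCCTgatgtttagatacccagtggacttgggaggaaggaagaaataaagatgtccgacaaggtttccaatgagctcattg
Cd2bp2, chr7:127195379-127195426: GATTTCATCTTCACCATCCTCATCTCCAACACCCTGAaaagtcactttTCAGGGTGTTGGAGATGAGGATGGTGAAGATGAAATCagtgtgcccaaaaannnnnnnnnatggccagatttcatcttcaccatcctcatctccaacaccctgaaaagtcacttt
In Nbas (1 tumor read of 27, 0 of 20 in normal lung) 31 bases were inverted, and in Cd2bp2 (0 of 122 in the tumor, 2 of 106 in normal lung) 37 bases. The gap at these sites thus holds an inverted stretch of the segment. Others lay in Csn1s2a, Rbl2 and Spink6 in the tumor only, and in Ctnnbl1, Abca4, Rarb and Eno4 in normal lung only, each with 1 duplication read.

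Duplicated segments also recurred at distant sites. Outside satellite and simple repeats, 47 of 389 records fell into 12 families that shared at least 8 12-mers across chromosomes or over more than 10000 bp, and 8 of the 12 families held more than 1 class. The largest, 14 in all, joined Chl1 records to records on chromosomes 2 and 9. Those on chromosome 2 lay in the dense window of that chromosome, where most records were satellite-like. Another family was a 42 bp unit on 3 chromosomes, an exact tandem copy in each of its 4 records, which began at different points of the unit. Its common core of 31 bases is in capitals:
Ank2, tumor only, chr3:127040451-127040492: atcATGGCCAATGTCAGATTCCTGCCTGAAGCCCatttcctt
No gene, normal lung only, chr14:19995848-19995889: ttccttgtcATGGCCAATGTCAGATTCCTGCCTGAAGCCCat
No gene, normal lung only, chr14:19995857-19995898: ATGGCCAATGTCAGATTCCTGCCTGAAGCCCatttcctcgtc
No gene, both libraries, chr19:51694843-51694884: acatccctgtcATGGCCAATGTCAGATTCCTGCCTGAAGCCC
Whether reads of 1 such site came from another was not tested.

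Most shared records had a wild-type record nearby. A wild-type record lay within 10 bp of 31 of 37 shared records (83.8%, 68.0 to 93.8), of 60 of 297 tumor-only records (20.2%, 15.8 to 25.2) and of 43 of 278 normal-only records (15.5%, 11.4 to 20.3). Outside dense windows, 100 kb windows with at least 8 records, the shares were 80.0% (61.4 to 92.3), 15.4% (11.3 to 20.4) and 15.4% (11.3 to 20.2). The one-sided classes thus had nearly equal shares outside those windows. The 37 shared records lay at 29 loci, so they are not independent, and at deeper sites. Their median depths were 12 tumor and 9 normal reads. Median depths were 2 and 0 in tumor-only records, and 1 and 2 in normal-only records. For shared records, 23 of the 31 had reads in wild-type normal lung. Of the 60 tumor-only records with a wild-type neighbor, 38 did. Within the A159V table, 11 tumor-only records had a normal read in another record within 10 bp, 6 of them in dense windows, and 10 normal-only records had a tumor read so placed.

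Genes of lung cancer, replication and repair held 11 records, all with reads in 1 library only, as had 575 of all 612 records (93.95%). A record lay in 3 of 40 lung cancer genes (7.50%), 2 of 46 replication genes (4.35%) and 5 of 58 repair genes (8.62%). Of all 21900 protein-coding genes, 313 held a record (1.43%). The lists were chosen with earlier results of these data known, and gene length was not taken into account. These shares therefore do not measure enrichment. Among lung cancer genes, Arid1b, a chromatin remodeling subunit, and Alk, a receptor kinase, had 1 tumor-only record each, both 1 of 2 reads at a normal depth of 0. Fgfr2, a fibroblast growth factor receptor, had 2 normal-only records. Among replication genes, Mcm8 and Recql4, a helicase, had a tumor-only record each, Recql4 with 1 of 16 tumor reads and 0 of 18 normal reads. Among repair genes, Parp1, which senses strand breaks, and Fanca, of the Fanconi anemia pathway, had 1 tumor read each. Nhej1, of end joining, Msh4, a meiotic MutS protein, and Fanci, a partner of Fancd2, had 1 normal read each. Except at Recql4 and Fanci (0 of 19 tumor reads, 1 of 36 normal reads), the other library had at most 1 read at these sites.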

How the data were processed

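The A159V lung tumor and A159V normal lung libraries were grouped by their titles and matched to columns by the names in their descriptions. The deposited values are, per the file headers, counts of reads for the reference and the duplicated allele from Pindel on GRCm38. BWA and mm10 are named in the submitters' processing notes. For tool versions and earlier filters, the answer is not given in the sources used here. Other fields used from the deposited table are, per the file headers, the segment length and the number of bases between the copies. All 612 records passed the filter field and had a breakpoint homology of 0 bp. Counts were used without normalization.

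A class needed at least 1 duplication read. Depth is reference plus duplication reads. Library totals are not in the table, so depth is known only at recorded sites. A simple repeat was, in the reference allele, a homopolymer with 8 or more bases, or a unit no longer than 6 bp repeated 3 or more times and spanning 12 bp or more. No satellite reference sequence was used, and satellite was recognised by 396 12-mers shared by the gene-free dense windows of chromosomes 2 and 9 in either table. Gene spans came from RefSeq on GRCm38.p6 (49997 genes), without exons. Shares carry Clopper-Pearson, counts Poisson, ratios conditional binomial and medians order-statistic intervals, at 95%. Reads without molecular identifiers may be copies of 1 molecule. The classing and sequence searches were tested on simulated data. Python 3.11.15 and scipy 1.17.1 were used.

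Named were all shared records, one-sided records with 2 or more reads or with a limit below the share seen, the 6 deepest of each one-sided class outside satellite and dense windows, list members and Fen1. Examples of these are printed. Nbas and other inverted records, and the segment families, were chosen after their values were seen. The members and lists were chosen with earlier results of these data known.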

Additional observations from a re-analysis of the deposited data

How the results depend on the processing

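Of 132 alternative values for 28 results, 92 stayed within the main interval and 40 moved. No paired analysis was possible because each group is 1 library, and for the same reason no replicate was left out. Leaving out chromosomes X, Y and M, an alternative chosen after seeing the data, moved none of the results it was run on.

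When a library counted only with 2 or more duplication reads, 53.1% of records were tumor-only, 30.6% normal-only and 16.3% shared. The tumor to normal ratio was then 1.73 (0.885 to 3.52). Records so classed as one-sided may hold 1 read in the other library. Exact copies gave 44.1% and 51.5%, with a ratio of 0.857. Shared records rose to 10.2% and 10.5% at 10 and 20 reads in each library.

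At 10 reads in each library, segment medians were 45 bp (tumor-only) and 42 bp (normal-only), exact copies 1.18% and 6.85%, gaps 65 and 61.5 bp, simple repeats 4.71% and 6.85% (shared 0%), GC 40% and 46.7%, and satellite 35.3% and 9.59%. Gene spans held 55.3% (44.1 to 66.1) of tumor-only and 78.1% (66.9 to 86.9) of normal-only records there. Satellite-like records, 35.3% and 9.59% of the same sets, mostly lay outside genes. Their part in the gene span contrast and in the segment, gap and GC shifts was not tested. With 2 or more reads needed to count a library, as above, the normal-only segment median was 37 bp. Exact copies were then 0% (tumor-only) and 26.7% (normal-only), and the tumor-only gap was 63.5 bp. Simple repeats were 7.69% and 6.67% (shared 0%), and normal-only GC was 48.5%. Gene spans held 65.4% and 80.0%, and tumor-only satellite was 19.2%. The stricter repeat definition gave 20.9% (tumor-only) and 0% (shared). Without dense windows, satellite was 1.54% (tumor-only), 1.50% (normal-only) and 0% (shared), and 15.4% of tumor-only records lay near a wild-type record. All but the stricter repeat definition keep fewer records, and the cause of each shift was not tested. Depth limits what absence can show: 283 of 612 sites had no read in 1 library.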

Other observations

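The deepest tumor-only record outside satellite lay in Gm10222 on chromosome 1 (24612698 to 24612743), in a stretch of the mouse nuclear genome known to be a copy of mitochondrial DNA. It had 1 of 2786 tumor reads (0.0359%, 0.000909 to 0.200) and 0 of 4163 normal reads, so normal lung was the deeper library there, unlike at satellite. The record on the mitochondrial genome itself, at positions 436 to 482, had 1 of 48 tumor reads and 0 of 63 normal reads.

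By chromosome, 14 stood furthest towards normal lung among chromosomes with 20 or more one-sided records, with 12 tumor-only and 30 normal-only records (ratio 0.400, 0.187 to 0.805). Without satellite-like records the counts were 11 and 27. The normal-only records there included 3 in Dnah12, a dynein heavy chain gene, and 2 in Grid1, a glutamate receptor gene, and 4 of these 5 had no tumor read at the site. Chromosome 2 stood furthest towards the tumor, with 36 and 13, and with 16 and 12 outside satellite. The 22 chromosomes were looked at together, and no test was made.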
